A study of Mus musculus with 14 samples.

Results

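The zone effect of a gene is its level in light zone (LZ) over dark zone (DZ) germinal centre (GC) B cells, on the log2 scale. The quantity described here is the difference of zone effects between genotypes, that is, the zone effect in SykY317F cells minus the zone effect in wild type (WT) cells. It draws on all 14 libraries of the series, which form 4 groups of 3 SykY317F LZ, 3 SykY317F DZ, 4 WT LZ and 4 WT DZ libraries. It was computed for the 7999 of 9969 measured genes that passed a filter on low counts. A positive difference means that a gene leaned more to the LZ in SykY317F cells than in WT cells, and a negative one that it leaned more to the DZ.

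Every library came from GC B cells sorted from popliteal lymph nodes of C57BL/6 chimeric mice, in which 50% of the cells were SykY317F and 50% were WT. All mice had received NP-KLH, a hapten coupled to a carrier protein, 14 days before the lymph nodes were taken. SykY317F cells carry a form of the kinase Syk in which a tyrosine is replaced by phenylalanine. The sources used here do not give the sort markers, the number of cells per library or the way the chimeras were made. Whether libraries of a group stem from different mice is not stated, so the p-values measure the spread between these libraries, which may be technical.

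The DZ is where GC B cells proliferate and AID mutates their antibody genes. They move to the LZ to test the new receptor on antigen held by follicular dendritic cells and to seek help from T cells. Syk is recruited to the B cell antigen receptor and relays its signal to calcium, MAP kinase, PI3K and NF-kB pathways. The tyrosine replaced here lies between the SH2 domains and the kinase domain, and its phosphorylation is known as a docking site for Cbl ubiquitin ligases, which tag activated Syk for degradation.

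The SykY317F LZ libraries were the shallowest, with 149641 to 379125 unique molecular identifiers (UMIs, each standing for 1 captured transcript molecule). SykY317F DZ libraries held 381954 to 1413310 UMIs, WT LZ libraries 499443 to 1600902 and WT DZ libraries 747948 to 1767898. The yield was 9.37 to 15.8 UMIs per 100 reads in SykY317F LZ, 15.7 to 43.0 in SykY317F DZ, 33.5 to 42.5 in WT LZ and 42.1 to 53.2 in WT DZ libraries. The 3 SykY317F LZ libraries and SykY317F DZ replicate 4, which was level with SykY317F LZ replicate 1 at 15.7 against 15.8 UMIs per 100 reads, were the low ones, and the other 10 libraries yielded 33.5 to 53.2. With the yield as a covariate 79 genes were higher and 135 lower at an unadjusted p under 0.05, and 0 passed edgeR's test after adjustment. Levels are in CPM, UMIs divided by the TMM-scaled total of their library times 1000000, and 3 UMIs equal 8.95 to 18.8 CPM in a SykY317F LZ library. As a check of the cell type, Bcl6, the transcription factor that defines GC B cells, was at 96 to 194 CPM in SykY317F LZ, 216 to 311 in SykY317F DZ, 203 to 288 in WT LZ and 293 to 477 in WT DZ libraries. Every SykY317F LZ library thus lay below every library of the other groups. Other GC markers went different ways. Mybl1 was at 0 in 2 SykY317F LZ libraries, while Fas was at 119 to 188 CPM in SykY317F LZ and 65.9 to 96.8 in SykY317F DZ libraries.

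No gene passed the test for a difference of zone effects. With edgeR's quasi-likelihood test and Benjamini-Hochberg adjustment over 7999 genes, 0 genes (0%) had an adjusted p under 0.05, and the smallest adjusted p was 0.535. An unadjusted p under 0.05 was reached by 384 genes (4.80%), where uniform p-values would give 399.95. Of these, 130 genes (1.63%) had a higher zone effect in SykY317F cells and 254 (3.18%) a lower one. Over all tested genes 46.3% of the differences were above 0 and 53.7% below, with a median of −0.05. DESeq2's Wald test also called 0 genes after adjustment, with 151 higher and 225 lower at an unadjusted p under 0.05. When libraries were scaled by their totals alone, the median of all genes was −0.19 and the split was 67 higher against 393 lower. Without SykY317F LZ replicate 1 there were 438 lower genes.

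**Figure D1:**
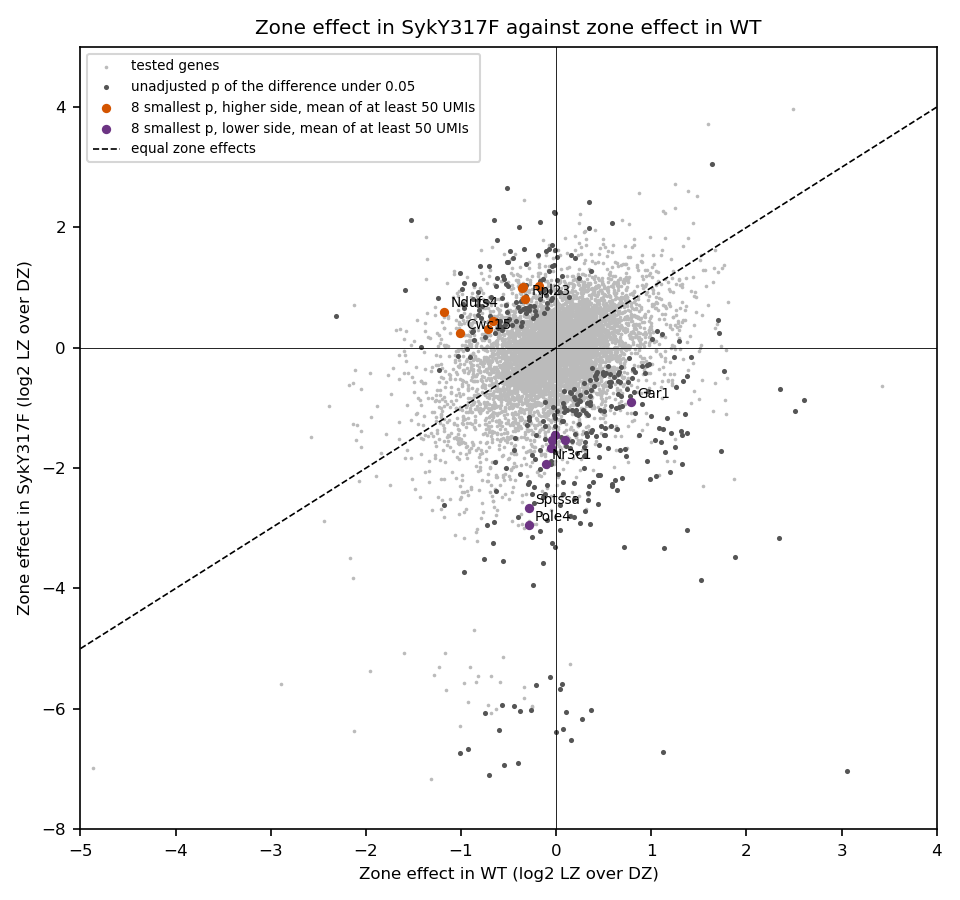
Zone effect (log2 LZ over DZ) in SykY317F cells on the vertical axis against that in WT cells on the horizontal axis, 1 point per tested gene; darker points have an unadjusted p of the difference under 0.05, coloured points are the 8 genes per side with the smallest p among those with a mean of at least 50 UMIs. Dark points lie on both sides of the dashed line of equal zone effects, 130 above it and 254 below it, and the points near −6 on the vertical axis are genes with few or 0 UMIs in SykY317F LZ libraries.

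The width of the intervals sets what could be seen. Among 3118 genes with a mean of at least 50 UMIs per library, the median standard error was 0.42 for the difference, against 0.33 for the SykY317F zone effect and 0.26 for the WT zone effect. Their median 95% interval reached 0.87 log2 to either side, and for 927 of them (29.7%) the whole interval lay within 1 log2 of 0. For these 927 genes a difference of more than 2-fold lies outside the interval, and for the other well counted genes it does not.

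The genotypes had zone effects of the same sign for most genes. The SykY317F and WT zone effects, which share no library, had the same sign for 4901 of 7999 genes (61.3%), and for 2039 of the 3118 well counted genes (65.4%). Across those 3118 genes Pearson's r between the zone effects was 0.45 and Spearman's rho was 0.43, as a description across genes, which are not independent replicates. The fit called 3 genes between SykY317F zones (0.0375%) and 15 between WT zones (0.188%), 11 of the 15 lower in LZ and 4 higher. All 15 lay on the same side in SykY317F cells, with a median size of 1.28 log2 there against 1.66 in the WT libraries in which they were chosen. For 11 of the 15 the size was larger in WT cells, whose libraries chose them.

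Among those 15, the smallest unadjusted p of the difference was 0.0104, for Gadd45g, a stress-induced inhibitor of growth that is known as an LZ gene. Gadd45g was at 86.6, 107.3 and 125.4 CPM in SykY317F LZ libraries and 66.8, 108.3 and 88.5 in SykY317F DZ libraries. It was at 192.0, 170.0, 61.4 and 76.8 CPM in WT LZ libraries and 44.0, 24.6, 43.6 and 41.5 in WT DZ libraries. All WT LZ libraries stood above all WT DZ libraries, the zones overlapped in SykY317F cells, and every SykY317F DZ library stood above every WT DZ library. The zone effect was 0.25 ± 0.40 in SykY317F cells and 1.71 ± 0.33 in WT cells (log2 ± SE), a difference of −1.46 ± 0.52 with an adjusted p of 0.991 by edgeR.

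The related gene Gadd45b, by contrast, was called in both genotypes, with more transcript in the DZ. Its zone effect was −1.52 ± 0.24 in SykY317F cells (adjusted p = 0.0154 by edgeR) and −1.01 ± 0.20 in WT cells (adjusted p = 0.034), and the difference of −0.52 ± 0.31 did not pass. Pafah1b3, a subunit of a platelet-activating factor acetylhydrolase, had zone effects of −1.65 ± 0.33 and −2.05 ± 0.27 in SykY317F and WT cells. By edgeR it was called between zones in WT cells (adjusted p = 0.00146) but not in SykY317F cells (adjusted p = 0.0653). The difference for Pafah1b3 was 0.40 ± 0.41. Apart from Gadd45b, the genes called between SykY317F zones were Ffar2, a receptor for short-chain fatty acids, and Nr3c1, the glucocorticoid receptor. Ffar2 had zone effects of 3.05 ± 0.46 in SykY317F cells and 1.64 ± 0.36 in WT cells, a difference of 1.41 ± 0.58 (unadjusted p = 0.024, adjusted p = 0.999 by edgeR). Ffar2 and Pafah1b3 are named here because of these zone calls.

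Genes that led the lower side by p mostly had few UMIs in SykY317F LZ libraries and higher levels in the other 3 groups. Setd1b, which encodes a histone H3 lysine methyltransferase (chr5:123142193-123168629, plus strand, GRCm38), was at 8.95, 0 and 0 CPM in SykY317F LZ libraries 1, 2 and 4. It was at 34.9, 56.5 and 38.7 CPM in SykY317F DZ libraries. In WT cells it was at 31.8, 35.6, 15.4 and 32.3 CPM in LZ libraries and 24.6, 11.2, 24.9 and 12.6 in DZ libraries. The SykY317F LZ libraries were therefore the lowest of all and SykY317F DZ stood above WT DZ without overlap. The 3 UMIs in SykY317F LZ against 146 in SykY317F DZ made Setd1b 10.1-fold lower at equal depth, with a 95% counting interval of 3.40 to 49.7, and all 3 came from replicate 1. The difference of zone effects was −4.02 ± 0.84, with an unadjusted p of 0.000105 and an adjusted p of 0.535 by edgeR.

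Herc1, a very large ubiquitin ligase (chr9:66350450-66508775, plus strand), was at 17.9, 5.65 and 18.8 CPM in SykY317F LZ libraries and 45.7, 47.1 and 52.5 in SykY317F DZ libraries. In WT cells, LZ libraries had 50.5, 60.3, 40.3 and 43.9 CPM and DZ libraries 28.5, 32.8, 36.5 and 25.1. The zones were separate in both genotypes and in opposite order. The zone effects were −1.71 ± 0.43 in SykY317F cells and 0.67 ± 0.27 in WT cells, and their difference was −2.38 ± 0.51 (adjusted p = 0.535 by edgeR). Only 10 UMIs were counted in the SykY317F LZ libraries together.

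Nr3c1, on chromosome 18, was at 26.9, 16.9 and 18.8 CPM in SykY317F LZ libraries, against 89.3, 78.0 and 82.9 in SykY317F DZ libraries. WT LZ libraries had 85.6, 88.0, 65.3 and 83.7 CPM and WT DZ libraries 67.3, 80.6, 101.4 and 99.2. The 3 SykY317F LZ libraries held only 9, 3 and 3 UMIs of Nr3c1. They stood below the other 11, which overlapped with each other. The zone effect was −1.93 ± 0.35 in SykY317F cells, which passed the test between zones (adjusted p = 0.0484 by edgeR), and −0.11 ± 0.22 in WT cells. The difference of −1.82 ± 0.42 had an adjusted p of 0.703 by edgeR. It lay between −2.13 and −1.55 under all 27 alternative settings, which reuse the same libraries.

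Gar1, a component of H/ACA ribonucleoproteins that guide pseudouridylation of ribosomal RNA (chr3:129824912-129831396, minus strand), had zone effects of opposite sign. It was at 38.8, 62.1 and 25.1 CPM in SykY317F LZ libraries and 89.3, 86.8 and 52.5 in SykY317F DZ libraries. It was at 165.7, 138.4, 159.3 and 100.5 CPM in WT LZ libraries and 77.7, 82.0, 74.8 and 89.8 in WT DZ libraries. WT LZ stood above WT DZ without overlap, while the SykY317F zones overlapped with LZ on the lower side. The difference was −1.68 ± 0.42 (unadjusted p = 0.000732, adjusted p = 0.85 by edgeR).

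Rpl15, Igfbp4 and Zfp422 had 0 UMIs in all SykY317F LZ libraries, as did 50 tested genes in all, 22 of them among the 254 on the lower side; no other group had a tested gene at 0. Rpl15 (a ribosomal protein gene, chr14:18267823-18271391, minus strand) was at 18.9, 19.5 and 16.6 CPM in SykY317F DZ libraries, 17.6, 11.9, 11.5 and 16.7 in WT LZ and 19.4, 17.2, 26.7 and 32.0 in WT DZ libraries. Rpl23, another ribosomal protein gene, was at 1505 to 5504 CPM in the 14 libraries. The counts of Rpl15 may therefore not stand for the level of its transcript, and the reason was not tested. Counting 3 UMIs over the SykY317F LZ group as the limit, Rpl15 was at least 4.23-fold lower there than in SykY317F DZ (61 UMIs), and Zfp422, a zinc finger protein gene, at least 3.89-fold lower (56 UMIs). Igfbp4, which encodes a secreted binding protein for insulin-like growth factors, was at 4.36, 20.2 and 33.2 CPM in SykY317F DZ libraries, 13.2, 10.9, 1.92 and 5.196 in WT LZ and 0, 0.746, 2.67 and 0 in WT DZ libraries. It was at least 3.33-fold lower in SykY317F LZ than in SykY317F DZ (48 UMIs). Igfbp4 was listed here as a stromal marker, and its counts in the SykY317F LZ group cannot be told apart from those of a gene below detection at that depth. Their unadjusted p-values were 0.000857, 0.000351 and 0.0011 for Rpl15, Igfbp4 and Zfp422, with adjusted p of 0.703 to 0.85 by edgeR.

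The remaining genes of the 12 with the smallest p on the lower side had 1 to 8 UMIs in the SykY317F LZ group. Pole4, a small subunit of DNA polymerase epsilon, was at 2.98, 16.9 and 25.1 CPM in SykY317F LZ libraries, against 141.6, 73.3 and 74.6 in SykY317F DZ libraries. WT LZ libraries had 91.1, 51.4, 82.5 and 99.3 CPM of Pole4 and WT DZ libraries 51.8, 92.5, 99.7 and 150.1, so that the SykY317F LZ group alone stood apart. The difference for Pole4 was −2.66 ± 0.69. E2f8, an atypical E2F repressor of cell cycle genes, had 1 UMI in SykY317F LZ against 80 in SykY317F DZ, which makes it 16.7-fold lower at equal depth (2.91 to 666 by counting error). Notch1, a receptor that acts as a transcription factor after cleavage, had 1 against 49 UMIs, a ratio of 10.2 (1.75 to 411). Uck2, a uridine-cytidine kinase of pyrimidine salvage, averaged 6.96 ± 1.76 CPM in SykY317F LZ, 25.3 ± 5.38 in SykY317F DZ, 40.8 ± 6.28 in WT LZ and 29.4 ± 8.90 in WT DZ (SD, n = 3, 3, 4 and 4). The last of the 12 was the complement gene C1qc, described with the myeloid markers.

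**Figure D2:**
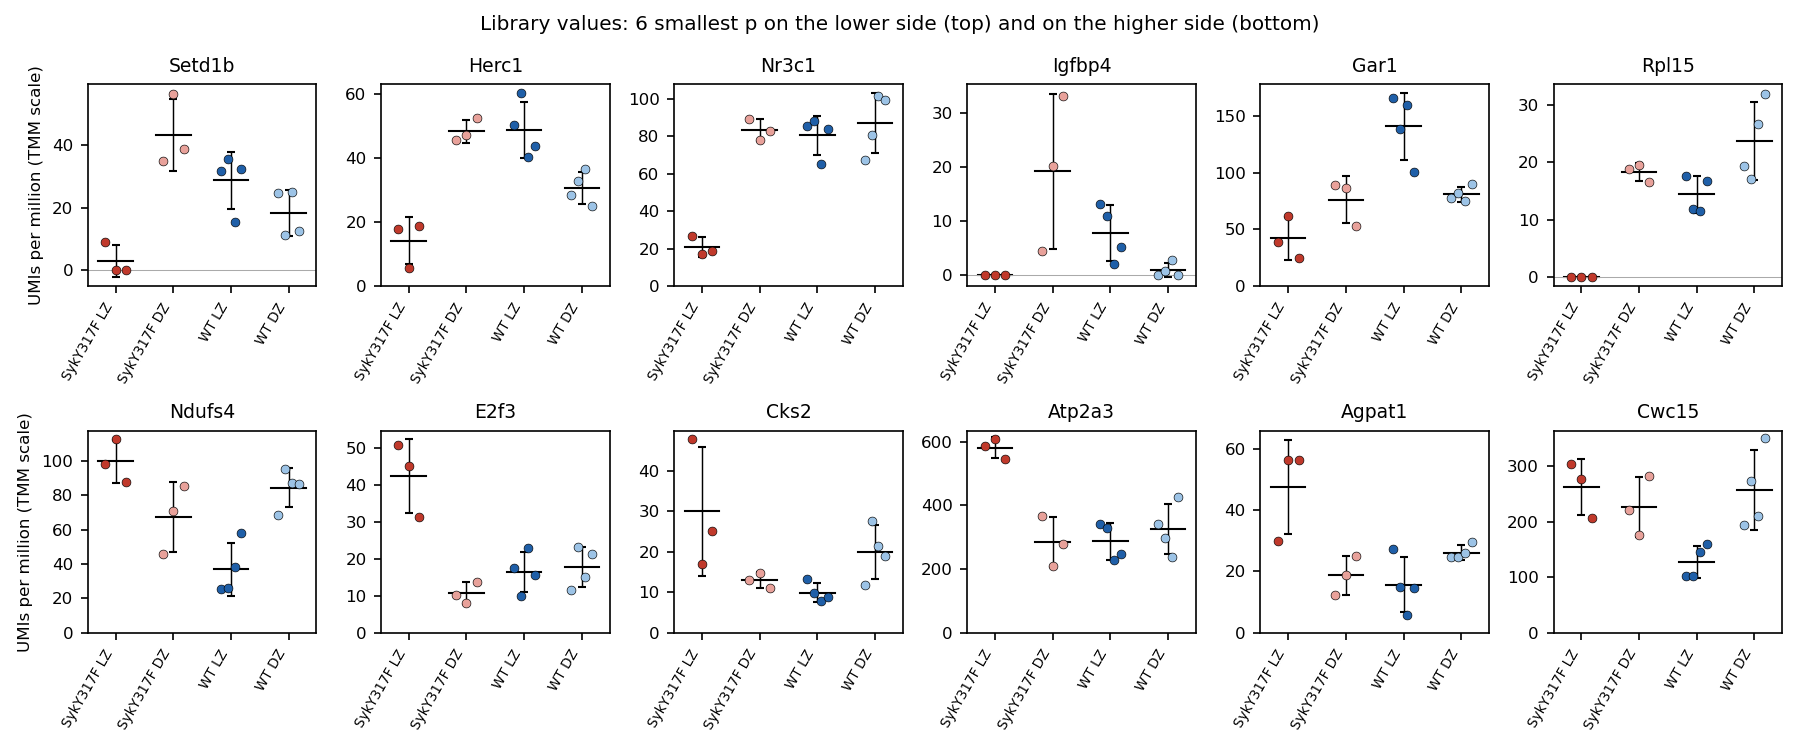
CPM in each library for the 6 leading genes by p of the lower side (top row) and of the higher side (bottom row), grouped as SykY317F LZ, SykY317F DZ, WT LZ and WT DZ; horizontal lines are means and bars are SD (n = 3, 3, 4 and 4). In the top row the SykY317F LZ libraries lie at or near the bottom of each panel, with 0 for Igfbp4 and Rpl15, and in the bottom row their mean is the highest of each panel.

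Genes on the lower side with a mean of at least 50 UMIs over the 14 libraries showed the same arrangement. In SykY317F LZ itself the genes below had few UMIs. Libraries 1, 2 and 4 of that group held 17, 4 and 3 UMIs of Pdcd2, 13, 5 and 5 of Clic4 and 6, 6 and 1 of Vgll4. They held 7, 2 and 2 UMIs of Timeless and 3, 1 and 2 of Sptssa. Pdcd2, a chaperone for a small-subunit ribosomal protein, was at 50.7, 22.6 and 18.8 CPM in SykY317F LZ libraries and 108.2, 115.0 and 63.6 in SykY317F DZ libraries. It was at 106.4, 98.9, 86.4 and 79.7 CPM in WT LZ libraries and 59.5, 85.8, 93.4 and 108.0 in WT DZ libraries, and only the SykY317F LZ group stood apart. Its difference was −1.62 ± 0.47. Clic4, a chloride intracellular channel family protein, averaged 32.8 ± 5.43 CPM in SykY317F LZ, 91.2 ± 12.0 in SykY317F DZ, 100.5 ± 18.6 in WT LZ and 101.2 ± 30.5 in WT DZ, a difference of −1.44 ± 0.43. Vgll4, a cofactor that competes with YAP for TEAD factors, averaged 19.4 ± 13.9, 62.6 ± 8.07, 60.1 ± 10.99 and 62.3 ± 13.4 CPM in the same order of groups, a difference of −1.61 ± 0.51. Timeless, a component of the replication fork protection complex, had a difference of −1.501 ± 0.49, and Sptssa, a small subunit of serine palmitoyltransferase, of −2.38 ± 0.76. In each of these 5 genes every SykY317F LZ library lay below every library of SykY317F DZ and of WT LZ, while both WT zones overlapped. The 5 were picked for a small p of the difference in the same libraries, which favours such separation. The share of all tested genes with this arrangement was not counted. By edgeR their adjusted p was 0.991.

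Most genes that led the higher side by p had high SykY317F LZ libraries. Zone effects had opposite signs in SykY317F and WT cells for 113 of the 130 higher genes and 179 of the 254 lower genes. Over all tested genes 61.3% had the same sign. The 130 and 254 genes were picked by the difference of these zone effects, which favours opposite signs. Ndufs4, a subunit of respiratory complex I (chr13:114287795-114388258, minus strand), was at 98.5, 112.9 and 87.8 CPM in SykY317F LZ libraries and 45.7, 70.6 and 85.7 in SykY317F DZ libraries. It was at 25.2, 25.7, 38.4 and 57.7 CPM in WT LZ libraries and 68.6, 95.5, 87.2 and 86.7 in WT DZ libraries. The LZ stood above the DZ in SykY317F cells and below it in WT cells, without overlap in either. The zone effects were 0.60 ± 0.35 and −1.18 ± 0.28, and the difference was 1.78 ± 0.45 (unadjusted p = 0.000764, adjusted p = 0.85 by edgeR). It lay between 1.55 and 2.14 under all 27 alternative settings, which reuse the same libraries.

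E2f3, an activating E2F factor that drives entry into S phase (chr13:29906575-29986063, minus strand), was at 50.7, 45.2 and 31.4 CPM in SykY317F LZ libraries against 10.2, 8.07 and 13.8 in SykY317F DZ libraries. WT LZ libraries had 17.6, 9.89, 23.03 and 15.6 CPM of E2f3 and WT DZ libraries 11.7, 23.1, 15.1 and 21.4. All 3 SykY317F LZ libraries stood above the other 11 libraries, and the difference was 2.25 ± 0.61 on 30 UMIs in SykY317F LZ. Cks2, a subunit of cyclin-dependent kinases (chr13:51645232-51650660, plus strand), was at 47.8, 16.9 and 25.1 CPM in SykY317F LZ, 13.1, 14.8 and 11.1 in SykY317F DZ, 13.2, 9.89, 7.68 and 8.66 in WT LZ and 11.7, 27.6, 21.4 and 18.8 in WT DZ libraries. For Cks2 all SykY317F LZ libraries stood above the SykY317F DZ libraries, whereas in WT cells the zones overlapped with the LZ on the lower side, a difference of 2.26 ± 0.64.

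Atp2a3, the SERCA3 calcium pump of the endoplasmic reticulum, was the best counted of the leading 6 (chr11:72961169-72993044, plus strand). It was at 588.0, 609.7 and 545.7 CPM in SykY317F LZ libraries and 367.4, 209.9 and 279.2 in SykY317F DZ libraries. Among WT libraries, LZ had 342.3, 328.2, 228.4 and 247.1 CPM and DZ 340.4, 297.6, 236.7 and 425.1. The SykY317F LZ libraries lay above all 11 others, which overlapped. The difference for Atp2a3 was 1.21 ± 0.35, with a 95% interval of 0.47 to 1.94 and an adjusted p of 0.991 by edgeR.

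Agpat1, an acyltransferase that makes phosphatidic acid (chr17:34604262-34613449, plus strand), was at 29.9, 56.5 and 56.5 CPM in SykY317F LZ, 12.3, 18.8 and 24.9 in SykY317F DZ, 27.4, 14.8, 5.76 and 14.4 in WT LZ and 24.6, 24.6, 25.8 and 29.5 in WT DZ libraries. Its SykY317F LZ libraries were above those of every other group, a difference of 2.07 ± 0.62. Cwc15, a spliceosome component (chr9:14500617-14510577, plus strand), was at 304.4, 276.6 and 207.0 CPM in SykY317F LZ and 221.4, 174.9 and 282.0 in SykY317F DZ libraries. WT LZ libraries had 102.0, 101.8, 145.9 and 158.8 CPM of Cwc15 and WT DZ libraries 192.9, 273.0, 209.1 and 350.4. Here the WT LZ group stood apart on the low side and the other 3 groups overlapped, with a zone effect of 0.24 ± 0.29 in SykY317F cells and −1.01 ± 0.24 in WT cells.

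The other higher-side genes included 3 of respiration or protein synthesis that were well counted. Rpl23, a ribosomal protein of the large subunit, was at 4009, 5504 and 2641 CPM in SykY317F LZ and 1686, 2640 and 2593 in SykY317F DZ libraries. It was at 1505, 1674, 1647 and 2180 CPM in WT LZ and 2058, 2615, 2542 and 1566 in WT DZ libraries. The SykY317F LZ libraries were the highest of all, with replicate 4 close to the top of the DZ, and the difference was 1.14 ± 0.39. Cox6b1, a subunit of cytochrome c oxidase, had a difference of 1.03 ± 0.36, and Uqcrh, a subunit of the cytochrome bc1 complex, of 1.36 ± 0.47.

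Msn, the membrane-to-actin linker moesin, was at 247.7, 333.1 and 388.9 CPM in SykY317F LZ, 114.0, 144.0 and 232.2 in SykY317F DZ, 143.7, 96.9, 132.4 and 170.3 in WT LZ and 198.0, 186.5, 224.3 and 91.1 in WT DZ libraries. Its SykY317F LZ libraries were above all others, a difference of 1.36 ± 0.44. Fkbp3, a nuclear prolyl isomerase, averaged 175.7 ± 5.91 CPM in SykY317F LZ, 129.4 ± 27.1 in SykY317F DZ, 99.7 ± 18.2 in WT LZ and 158.7 ± 24.7 in WT DZ, with separate zones of opposite order in SykY317F and WT cells and a difference of 1.10 ± 0.34. Tmem258, a subunit of the oligosaccharyltransferase, had a difference of 1.75 ± 0.58 and Acot13, an acyl-CoA thioesterase, of 1.24 ± 0.41. Rgs9, a regulator of G protein signalling, and Gnb4, a G protein beta subunit, had differences of 2.16 ± 0.68 and 2.08 ± 0.69 on 15 and 20 UMIs in SykY317F LZ. For both genes the SykY317F LZ libraries overlapped those of SykY317F DZ and of WT LZ. Every SykY317F DZ library lay below every WT DZ library. By edgeR, adjusted p-values of these higher-side genes were 0.85 to 0.991. The sources used here do not state strand or counting settings, so the counts of genes that overlap another gene are uncertain, which holds for Herc1, Rpl15, Pdcd2, Agpat1, Fkbp3 and Tmem258, and below for Cd72, Ly9, Bid, Ube2c and Gnl3.

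**Figure D3:**
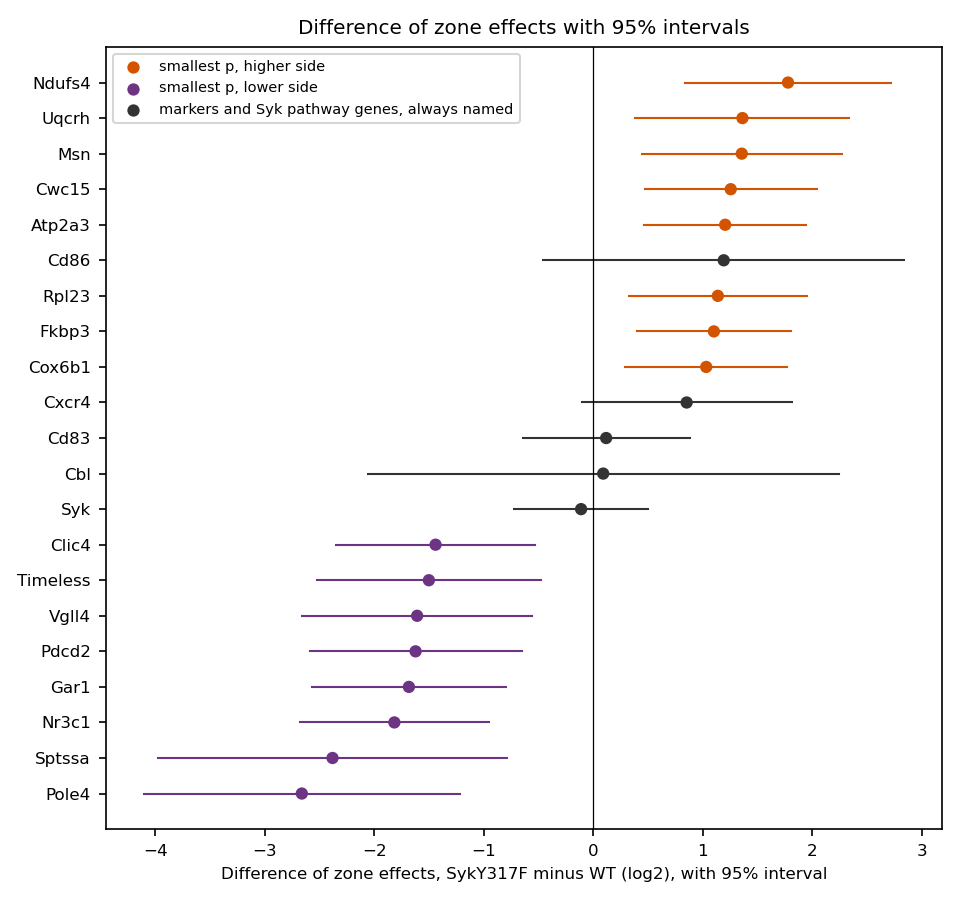
Difference of zone effects (log2, SykY317F minus WT) with its 95% interval for the 8 genes per side with the smallest p among those with a mean of at least 50 UMIs, and for Syk, Cbl, Cxcr4, Cd83 and Cd86. The intervals of the coloured genes, which were picked for small p, exclude 0 before adjustment, and those of the 5 dark genes include it.

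On both sides the SykY317F zone effect was more often the larger one, as it was over all tested genes. The SykY317F zone effect was larger in size than the WT zone effect for 89 of the 130 higher genes (68.5%) and for 209 of the 254 lower genes (82.3%), against 62.9% of all tested genes. The share on the higher side was near that of all genes. Over all tested genes the median standard error was 0.47 for the SykY317F zone effect and 0.34 for the WT zone effect. The part of this wider error in the shares was not tested. The lower genes had a median of 26.2 UMIs per library, the higher genes 45.8 and all tested genes 35.4. By level, the median difference was −0.18 in the 20% of genes with the fewest UMIs, of which 4.22% were lower and 1.05% higher at an unadjusted p under 0.05. In the 20% with the most UMIs the median was 0.02, and 1.31% were lower and 2.50% higher. The part of depth in the excess of lower genes was not tested beyond these values.

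The targeted gene and its ligases gave no difference past the test. Syk (chr13:52583173-52648792, plus strand) was at 429.8, 429.0 and 382.6 CPM in SykY317F LZ libraries and 626.5, 508.5 and 505.9 in SykY317F DZ libraries. WT LZ libraries had 353.2, 502.2, 422.3 and 409.9 CPM of Syk and WT DZ libraries 592.8, 477.3, 467.2 and 529.4. The DZ was the higher zone without overlap in SykY317F cells and with overlap in WT cells. The difference for Syk was −0.11 ± 0.29 with a 95% interval of −0.72 to 0.50. A substitution of 1 amino acid does not show in a UMI count, so Syk levels do not check the genotype labels.

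Cbl was at 11.9, 5.65 and 37.6 CPM in SykY317F LZ and 18.2, 41.7 and 13.8 in SykY317F DZ libraries. It was at 13.2, 31.6, 28.8 and 37.5 CPM in WT LZ and 35.0, 70.1, 69.4 and 9.42 in WT DZ libraries, and no pair of groups was separate. The difference for Cbl was 0.09 ± 1.02, with an interval of −2.06 to 2.24, and its sign turned under several settings. Cblb had 1, 0 and 1 UMI in SykY317F LZ libraries, and its interval of −4.79 to 3.57 left it undetermined. Of the 32 tested genes of proximal antigen receptor signalling, 17 lay above 0 and 15 below, with a median difference of 0.03. At an unadjusted p under 0.05, 2 of them were lower (background 3.18%) and 0 higher (background 1.63%). Dapp1, an adaptor that binds PI3K products at the membrane, had a difference of −0.95 ± 0.39, and Btk, the kinase that activates phospholipase C gamma, of 0.75 ± 0.46. The median of 21 inhibitory co-receptors and phosphatases was −0.14 (0.17 without SykY317F DZ replicate 2), with Cd72, an inhibitory receptor, at −0.66 ± 0.36.

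Genes of proteins commonly used to tell the zones apart gave no difference past the test. Cd83 was at 779.0, 818.5 and 959.7 CPM in SykY317F LZ against 352.1, 580.5 and 284.7 in SykY317F DZ libraries, and at 405.9, 704.8, 541.3 and 729.2 CPM in WT LZ against 277.0, 316.2, 354.2 and 293.9 in WT DZ libraries. The LZ was above the DZ without overlap in both genotypes, and the difference for Cd83 was 0.12 ± 0.37 (95% interval −0.65 to 0.88). Cd86 was at 104.5, 62.1 and 200.7 CPM in SykY317F LZ and 40.7, 51.1 and 24.9 in SykY317F DZ libraries, and at 64.7, 67.2, 82.5 and 118.4 in WT LZ and 33.7, 102.2, 105.9 and 17.0 in WT DZ libraries. For Cd86 the zones were separate in SykY317F cells and overlapped in WT cells, and the difference was 1.19 ± 0.77. Cxcr4, the chemokine receptor that holds cells in the DZ, was at 244.7, 485.5 and 244.6 CPM in SykY317F LZ and 255.6, 236.1 and 337.2 in SykY317F DZ libraries. WT LZ libraries had 159.1, 170.0, 96.0 and 93.5 CPM of Cxcr4 and WT DZ libraries 324.9, 138.7, 148.6 and 190.3. Cxcr4 overlapped between zones in both genotypes, the SykY317F LZ libraries stood above all WT LZ libraries, and the difference was 0.85 ± 0.46. It was 0.41 without SykY317F LZ replicate 2 and 0.23 with UMI yield as a covariate.

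Of the lists of zone genes, the LZ programme had a smaller median zone effect in SykY317F cells, in values that no list test accompanies here. Of 36 tested genes of the LZ programme, 27 lay below 0 and 9 above, with a median difference of −0.32, a median zone effect of 0.37 in SykY317F cells and 0.73 in WT cells. At an unadjusted p under 0.05, 4 of the 36 were lower, namely Gadd45g, Ccnd2, Egr3 and Sh3bp2, against the background of 3.18%. Ccnd2, the G1 cyclin D2, had a difference of −2.14 ± 0.80, and Sh3bp2, an adaptor that binds Syk and other signalling proteins, of −1.24 ± 0.54. The mean log2 level of the list was 6.80, 6.86 and 6.92 in SykY317F LZ and 6.33, 6.85 and 6.32 in SykY317F DZ libraries. It was 6.99, 7.01, 6.81 and 6.95 in WT LZ and 6.33, 6.08, 6.31 and 6.14 in WT DZ libraries. SykY317F DZ replicate 2 was thus level with the LZ libraries. The median difference was −0.20 without that library, −0.20 without SykY317F LZ replicate 2 and −0.19 without WT DZ replicate 3.

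Of 22 genes of the DZ programme, 14 lay above 0 and 8 below, with medians of −0.72 in SykY317F cells and −0.84 in WT cells and a median difference of 0.16. Without SykY317F DZ replicate 2 that median was −0.10, so its sign rests on this library. Cmpk1, a pyrimidine nucleoside monophosphate kinase, was the gene of this list with the smallest p, at 0.87 ± 0.40. Its WT zone effect of −1.23 ± 0.25 passed the test between zones (adjusted p = 0.0433 by edgeR), and its SykY317F zone effect was −0.36 ± 0.31. Genes of GC B cell identity lay above 0 in 17 of 19 cases, with a median zone effect of 0.15 in SykY317F cells and −0.49 in WT cells and a median difference of 0.39. None of the 19 reached an unadjusted p under 0.05; Fas, the death receptor, had 1.30 ± 0.63 and Ebf1, a B lineage transcription factor, 0.91 ± 0.61. The median of this list was 0.19 without SykY317F LZ replicate 2 and 0.20 when only numbers with both zones in a genotype were kept.

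**Figure D4:**
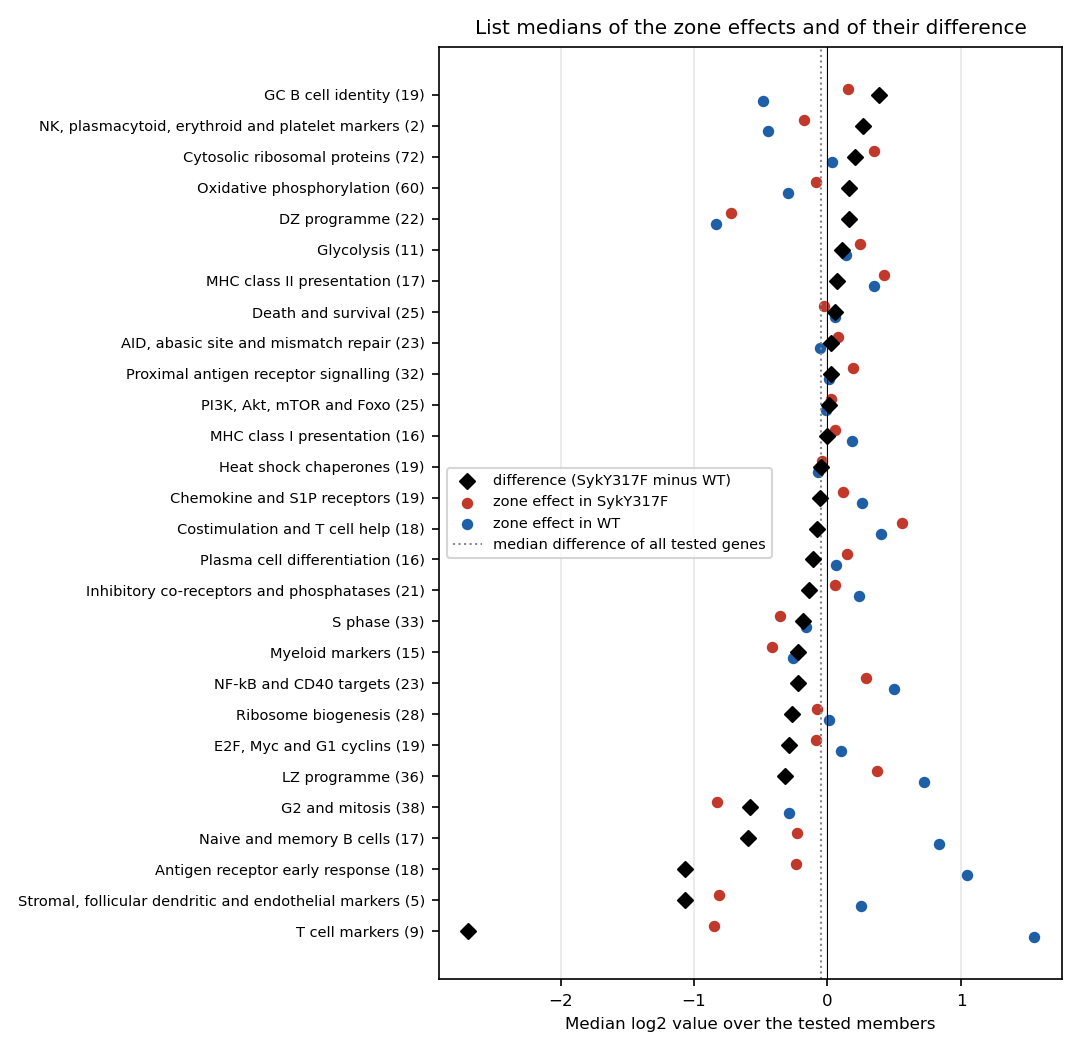
Median over the tested members (number in parentheses) of 28 gene lists for the difference of zone effects (diamonds), the zone effect in SykY317F cells (red) and the zone effect in WT cells (blue), in log2 units; the dotted line is the median difference of all tested genes. Most lists lie close to 0, from GC B cell identity at 0.39 down to the T cell markers at −2.69, and the lists on the far left have few or low-count members.

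The early response to antigen receptor signalling lay below 0 for 17 of its 18 tested genes, against 53.7% of all tested genes, with a median difference of −1.06. Of 24 measured genes of this list 18 passed the filter on low counts, 17 of them higher in SykY317F DZ than in WT DZ. A gene can pass through the group where it is high, so neither the number below 0 nor the median is separate support. The median zone effect of the list was −0.23 in SykY317F cells and 1.05 in WT cells. These genes are transcribed within minutes of stimulation and include the Egr and AP-1 factors. Egr3 was at 0, 22.6 and 18.8 CPM in SykY317F LZ and 8.71, 69.3 and 8.29 in SykY317F DZ libraries, and at 8.78, 20.8, 21.1 and 20.8 in WT LZ and 12.9, 7.46, 4.45 and 3.77 in WT DZ libraries. The high value of SykY317F DZ replicate 2 stood out, and the difference for Egr3 was −2.79 ± 1.202 (unadjusted p = 0.0328, adjusted p = 0.999 by edgeR). Fos stood out in the same library, with 113.0 CPM in SykY317F DZ replicate 2 against 7.26 and 2.76 in the other SykY317F DZ libraries. Egr3, which the LZ programme also holds, was the only gene of this list with an unadjusted p under 0.05, and Egr2 had −1.54 ± 0.80. The difference for Egr2 was −2.33 without SykY317F LZ replicate 1, −0.73 without SykY317F DZ replicate 2 and −0.42 with UMI yield as a covariate.

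The value of the early response list followed SykY317F DZ replicate 2. The mean log2 level was 5.41, 6.54 and 5.596 in SykY317F LZ and 5.74, 7.24 and 5.26 in SykY317F DZ libraries 1, 2 and 4. It was 6.36, 6.77, 5.73 and 5.91 in WT LZ and 5.84, 5.36, 5.51 and 5.35 in WT DZ libraries, and the library numbered 2 was the highest in each of the 4 groups. Without SykY317F DZ replicate 2 the median difference was −0.26, and without SykY317F DZ replicate 1 it was −1.74. Without SykY317F DZ replicate 2 the difference was −0.94 for Egr3 and −1.13 for Fos.

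Of 21 measured genes of naive and memory B cells, which mark cells outside the GC, 17 passed the filter on low counts. In SykY317F DZ 15 of the 17 were higher than in WT DZ, so the limit given for the early response holds here too. The 17 tested genes lay below 0 in 15 cases, against 53.7% of all tested genes. They had a median zone effect of −0.23 in SykY317F cells and 0.84 in WT cells and a median difference of −0.60. Their mean log2 level was 5.56, 6.80 and 6.13 in SykY317F LZ, 5.99, 6.995 and 5.77 in SykY317F DZ, 5.87, 6.57, 5.33 and 6.25 in WT LZ and 5.51, 5.35, 5.78 and 5.06 in WT DZ libraries. Replicate 2 was highest in SykY317F LZ, SykY317F DZ and WT LZ. Without SykY317F DZ replicate 2 the median difference was −0.18, and without the 2 libraries with the fewest UMIs, both SykY317F LZ, it was −1.70. S1pr1, the sphingosine phosphate receptor through which lymphocytes leave lymph nodes, was at 17.9, 22.6 and 18.8 CPM in SykY317F LZ and 35.6, 91.5 and 27.6 in SykY317F DZ libraries. It was at 23.04, 40.5, 7.68 and 30.0 CPM in WT LZ and 19.4, 13.4, 14.2 and 11.3 in WT DZ libraries. All SykY317F DZ libraries stood above SykY317F LZ and above WT DZ libraries, and the difference for S1pr1 was −2.32 ± 0.72 (unadjusted p = 0.0042, adjusted p = 0.991 by edgeR). Bcl2, the survival factor that GC cells keep low, had −1.83 ± 0.91.

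**Figure D5:**
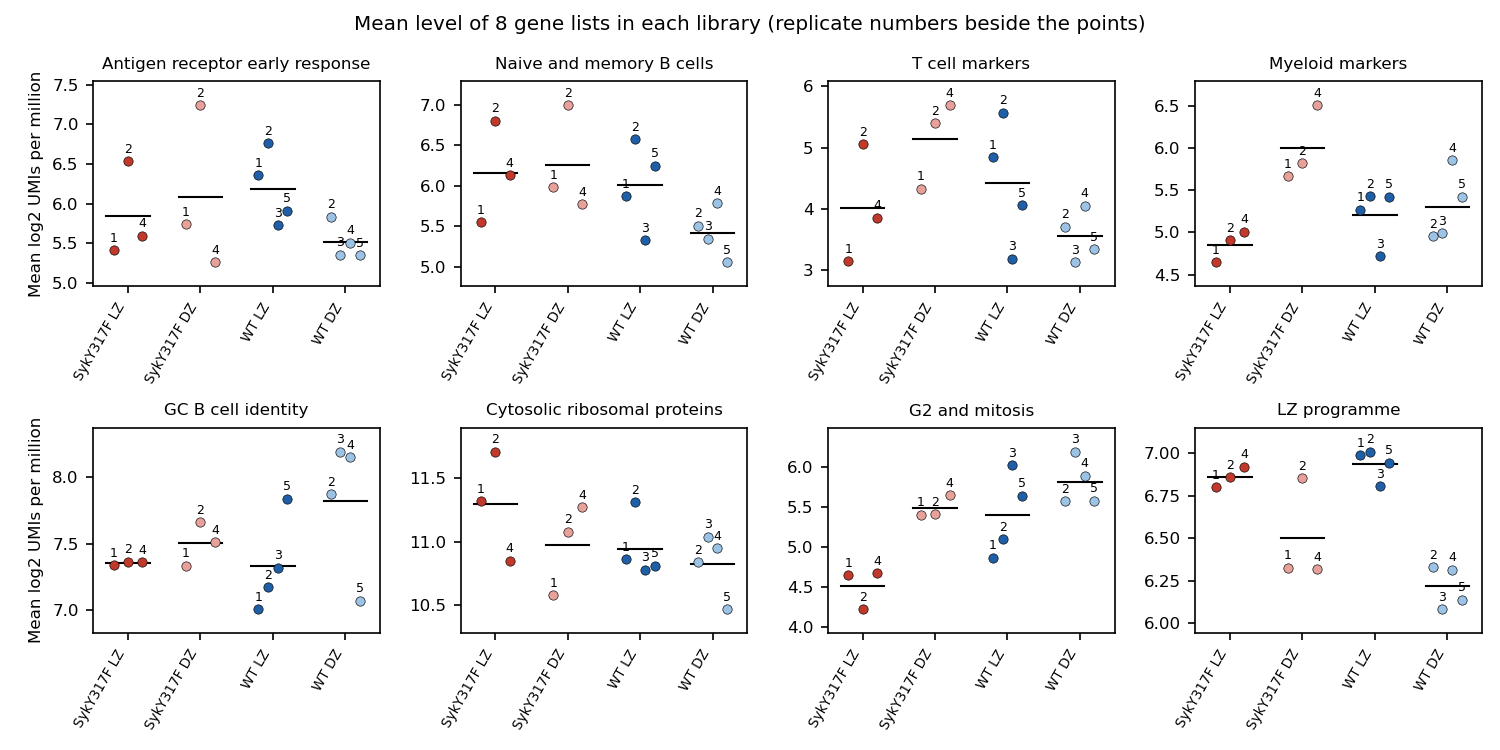
Mean log2 CPM of 8 gene lists in each library, with the replicate number beside each point and a line at the group mean (n = 3, 3, 4 and 4 for SykY317F LZ, SykY317F DZ, WT LZ and WT DZ). SykY317F DZ replicate 2 stands at 7.24 for the early response and 6.995 for naive and memory B cell genes, above the other SykY317F DZ libraries, and all SykY317F LZ libraries lie below the other groups for G2 and mitosis.

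Markers of T cells and macrophages, which a sort of GC B cells should leave out, lay mostly below 0. Of 17 measured T cell markers 9 passed the filter on low counts, and all 9 were higher in SykY317F DZ than in WT DZ. A marker can pass through the group where it is high, so neither the number of markers below 0 nor the list median is separate support. T cell markers lay below 0 in 8 of 9 tested cases, with a median difference of −2.69 and medians of −0.85 in SykY317F cells and 1.54 in WT cells. The summed level of all 17 was 391.0 to 637.9 CPM in SykY317F LZ, 522.7 to 716.0 in SykY317F DZ, 311.2 to 625.7 in WT LZ and 249.1 to 410.1 in WT DZ libraries. Cd4 was at 0, 0 and 6.27 CPM in SykY317F LZ, 5.81, 20.9 and 19.4 in SykY317F DZ, 14.3, 24.7, 0 and 6.93 in WT LZ and 1.29, 0.746, 3.56 and 3.14 in WT DZ libraries. In SykY317F LZ 1 UMI of Cd4 was counted against 46 in SykY317F DZ, which makes it 9.58-fold lower at equal depth (1.64 to 386 by counting error). Lat, an adaptor of T cell receptor signalling, had a difference of −1.56 ± 0.51 and Thy1 of −3.47 ± 1.50. The list median ran from −7.67 without the 2 libraries with the fewest UMIs to −0.77 under a stricter filter on low counts.

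Of 22 measured myeloid markers 15 passed the filter, 13 of them higher in SykY317F DZ than in WT DZ. Their number below 0 and their median are therefore no separate support either. Of the 15 tested myeloid markers 12 lay below 0, with a median difference of −0.22, and 4 were lower at an unadjusted p under 0.05 (background 3.18%). Leaving out SykY317F DZ replicate 4 gave a myeloid median of −0.10, and leaving out SykY317F LZ replicate 2 gave −0.66. It was −1.65 when the 2 libraries with the fewest UMIs were left out. The 3 chains of complement C1q, made by tissue macrophages, led them. C1qc was at 2.98, 0 and 0 CPM in SykY317F LZ, 17.4, 16.8 and 38.7 in SykY317F DZ, 7.68, 17.8, 0 and 6.93 in WT LZ and 2.59, 0.746, 4.45 and 3.77 in WT DZ libraries. The SykY317F DZ libraries stood above SykY317F LZ and WT DZ libraries without overlap. C1qc had 1 UMI in SykY317F LZ against 63 in SykY317F DZ, which makes it 13.1-fold lower at equal depth (2.27 to 526 by counting error), and C1qa had 2 against 78, a ratio of 8.12 (2.17 to 68.2). C1qb had a difference of −2.85 ± 0.95. The summed myeloid level was 1885 to 2847 CPM in SykY317F LZ, 2318 to 3823 in SykY317F DZ, 2086 to 2992 in WT LZ and 1860 to 3490 in WT DZ libraries. Cd3e reached 45.2 CPM in 1 SykY317F LZ library, 8.29 in SykY317F DZ, 5.49 in WT LZ and 2.67 in WT DZ libraries, and was at 0 in 1 SykY317F LZ library, 1 WT LZ library and 2 WT DZ libraries. In libraries of bulk cells fewer cells of a type cannot be told apart from less RNA per cell. Of 9 measured stromal markers 5 passed the filter, 4 of them higher in SykY317F DZ than in WT DZ, and the same limit holds. The 5 tested stromal markers all lay below 0, with a median of −1.06, which was −0.35 without SykY317F LZ replicate 1 and −1.95 without a filter on low counts. The part of other cells in the early response and naive or memory values was not tested.

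The lists of cell division held G2 and mitosis genes, S phase genes, and E2F, Myc and G1 cyclin genes. Of 38 tested genes of G2 and mitosis, 31 lay below 0, with a median zone effect of −0.83 in SykY317F cells and −0.29 in WT cells and a median difference of −0.58. With 3 genes at 0 UMIs in SykY317F LZ set to their bounds, the median was −0.48. Only 1 of the 38 was lower at an unadjusted p under 0.05 (background 3.18%), and 1, Cks2, was higher (background 1.63%). The mean log2 level of the list was 4.64, 4.22 and 4.67 in SykY317F LZ and 5.41, 5.42 and 5.65 in SykY317F DZ libraries, and 4.87, 5.10, 6.03 and 5.65 in WT LZ and 5.57, 6.20, 5.90 and 5.59 in WT DZ libraries. SykY317F LZ libraries were below all others, and without WT LZ replicate 3, the highest of its group, the median difference was −0.33.

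Ccnb2, a mitotic cyclin, was at 29.9, 0 and 43.9 CPM in SykY317F LZ against 188.0, 101.6 and 176.9 in SykY317F DZ libraries, and at 52.7, 63.3, 134.4 and 72.8 in WT LZ against 102.3, 213.3, 197.6 and 199.1 in WT DZ libraries. Its difference of −1.45 ± 0.69 was the 1 lower difference of the list that reached an unadjusted p under 0.05. Ube2c, the ubiquitin-conjugating enzyme of the anaphase-promoting complex, had −1.01 ± 0.51. In S phase, 24 of 33 genes lay below 0 with a median of −0.18 (−0.43 without SykY317F LZ replicate 1, −0.04 without WT LZ replicate 3), and 0 reached an unadjusted p under 0.05 on either side; E2f1, an activating E2F factor, had −0.86 ± 0.48. Among 19 genes of E2F, Myc and G1 cyclins the median was −0.29. At an unadjusted p under 0.05, E2f3 was higher (background 1.63%) and Ccnd2 and E2f8 were lower (background 3.18%).

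The medians of both lists on ribosomes, ribosomal proteins and ribosome biogenesis, took the other sign without 1 library. Of 72 tested cytosolic ribosomal protein genes 56 lay above 0, with a median zone effect of 0.35 in SykY317F cells and 0.03 in WT cells and a median difference of 0.21. At an unadjusted p under 0.05, 6 of the 72 were higher (background 1.63%) and 1, Rpl15, was lower. Rpl38 was at 2456, 3720 and 1631 CPM in SykY317F LZ and 1094, 1668 and 1703 in SykY317F DZ libraries, and at 1481, 1322, 1261 and 1090 in WT LZ and 1667, 1254, 1162 and 1706 in WT DZ libraries. Its difference was 0.98 ± 0.38, and that of Rpl36a was 1.41 ± 0.56. The list median was −0.03 without SykY317F LZ replicate 2, the library with the highest ribosomal protein level, and 0.41 without SykY317F LZ replicate 4. These genes have many processed copies in the genome, and the sources used here do not state how reads matching several places were counted, so their counts are uncertain.

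Ribosome biogenesis, the nucleolar assembly of ribosomes, lay lower for 18 of 28 genes, with a median of −0.26 (0.02 without SykY317F DZ replicate 2), and 4 were lower at an unadjusted p under 0.05 (background 3.18%). Beside Gar1 these included Polr1a, the largest subunit of RNA polymerase I, at −1.46 ± 0.61, and Gnl3, the nucleolar GTPase nucleostemin, at −1.91 ± 0.85. Of 60 genes of oxidative phosphorylation 41 lay above 0, with a median zone effect of −0.08 in SykY317F cells and −0.29 in WT cells and a median difference of 0.16 (0.01 when scaled by library totals alone). At an unadjusted p under 0.05, 4 were higher (background 1.63%) and 0 lower (background 3.18%). Beside Cox6b1 and Uqcrh these were Atp5k, a subunit of ATP synthase, at 0.99 ± 0.43, and Ndufb3, a subunit of complex I, at 0.96 ± 0.46.

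The median difference was 0.07 for 17 MHC class II genes, 0.00 for 16 MHC class I genes and −0.08 for 18 genes of costimulation and T cell help, and each of these medians took both signs over the alternatives run. Of 23 targets of NF-kB and CD40, 16 lay below 0, with a median of −0.22, which was −0.08 without SykY317F LZ replicate 4 and −0.39 when scaled by library totals alone. Rfx5, a factor that switches on MHC class II genes, had −1.09 ± 0.51, and H2-DMb2, a peptide-exchange chaperone chain, had 0.85 ± 0.61. Ly9, a SLAM family receptor, had 0.85 ± 0.31 and Tnfrsf13c, the BAFF receptor, 0.72 ± 0.31, and both were higher at an unadjusted p under 0.05 (background 1.63%). Tnip2, an inhibitor of NF-kB activation, had −2.13 ± 0.68 on 5 UMIs in SykY317F LZ, and Nfkb1, the precursor of the p50 subunit, had −0.94 ± 0.34.

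Medians lay between −0.11 and 0.11 for plasma cell differentiation, chemokine and S1P receptors, glycolysis, PI3K and mTOR, death and survival, AID and mismatch repair, and heat shock chaperones. The median of 2 markers of NK, plasmacytoid, erythroid or platelet cells was 0.27, but −0.77 to 0.59 when 1 library was left out and −2.32 without a filter on low counts. Bid and Bbc3, both of which promote apoptosis, had differences of 0.83 ± 0.35 and −1.24 ± 0.60. Rpa1, a subunit of the protein that coats single-stranded DNA, averaged 105.2 ± 3.16 CPM in SykY317F LZ, 175.2 ± 22.02 in SykY317F DZ, 229.2 ± 24.7 in WT LZ and 207.5 ± 35.0 in WT DZ, a difference of −0.88 ± 0.31. Its SykY317F LZ libraries were below all others. The 9 mitochondrially encoded genes listed had 0 members in the table.

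The zone effect in each genotype varied with transcript GC content. In the 20% of genes with the lowest transcript GC content the median zone effect was −0.29 in SykY317F cells and −0.34 in WT cells. In the 20% with the highest GC content it was 0.10 in SykY317F cells and 0.15 in WT cells. The median difference was −0.07 to −0.01 over all 5 such bins of GC content, and 96.6% of the tested genes had a transcript value. By transcript length, the share of genes higher at an unadjusted p under 0.05 was 3.23% in the 20% with the shortest transcripts and 0.84 to 1.68% in the other 4 bins.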

How the data were processed

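The 14 libraries were made with a variant of MARS-seq, a method that captures poly(A) RNA and counts UMIs, per the labels' protocols, and hold sorted LZ and DZ GC B cells of both genotypes. The authors deposited a table of UMI counts per gene and a table of read counts. Tools listed in the submitters' processing notes, with no role or order, are STAR 2.4.2a, HTSeq, cutadapt, DESeq and DESeq2, and the build is mm10. Groups were taken from the labels.

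From the deposited counts, edgeR 4.0.16 in R 4.3.3 fitted the 4 groups together, with genes kept by filterByExpr, TMM scaling and the robust quasi-likelihood F test. The contrast was (SykY317F LZ minus SykY317F DZ) minus (WT LZ minus WT DZ), adjusted over 7999 genes. The kept genes held 99.29% of the UMIs. Standard errors are the fitted difference divided by the root of F. The calculation was tested on simulated data. Fits with DESeq2 1.42.0, limma 3.58.1 and sva 3.50.0 were among 27 alternatives, with other scalings and filters, replicate blocks, libraries left out, read counts and yield as a covariate. Of 9954 genes shared by the tables, 0 entries had more UMIs than reads.

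Genes were named by rank of p: 12 per side, 8 per side among genes with a mean of at least 50 UMIs, and up to 4 per list, with Syk, Cbl, Cblb, Cxcr4, Cd83 and Cd86 always; Ffar2 and Pafah1b3 were added after their zone values were seen. Of the list genes picked by this rule only some are described. The gene lists, the rule and the members were chosen with earlier results of these data known. Counting intervals and the floor of 3 UMIs cover counting error only. Positions come from the GENCODE annotation of GRCm38, the assembly of mm10.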

Additional observations from a re-analysis of the deposited data

Results flagged for a closer look

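In 6 of 110 groups of 4 libraries 1 library stood far from the other 3, where chance gives about 1 in 20. Cblb was at 21.36 CPM in WT LZ replicate 5, against 2.97 CPM in the next library. In WT DZ replicate 5 the mean log2 level was 9.314 for MHC class II presentation (next library 8.97), 5.936 for E2F, Myc and G1 cyclins (5.63) and 5.444 for PI3K, Akt, mTOR and Foxo, where it was the lowest (5.87). The mean log2 level of cytosolic ribosomal proteins was 11.31 in WT LZ replicate 2 (10.9). That of stromal, follicular dendritic and endothelial markers was 5.067 in WT LZ replicate 3, the lowest of its group (5.49).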

How the results depend on the processing

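With edgeR, DESeq2 and limma alike, 0 genes passed the adjusted threshold under all 27 alternatives, and the smallest adjusted p of any named gene was 0.0757, for Rpl15 in read counts. At an unadjusted p under 0.05, genes higher and lower numbered 130 and 254. The higher count was 67 with library totals only, 271 with voom and 227 with 1 surrogate variable. It was 75 with the replicate block by genotype and number and 79 with UMI yield as a covariate. The lower count was 393 with library totals only, 426 without the 2 libraries with the fewest UMIs, where the lone SykY317F LZ library is assumed to vary like other groups, 526 in read counts, 169 with the surrogate variable and 135 with the yield covariate. Leaving out 1 library gave 91 to 191 higher and 183 to 438 lower genes. The causes were not tested. The median of all genes was 0.04 with the yield covariate.

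Of 78 genes followed, 74 kept their sign under every alternative run. Most of the 78 were picked for a small p of this difference, and the alternatives reuse the same libraries. Both favour an unchanged sign, so the count is no separate support. Cbl was −0.0057 with library totals only, −0.51 with the replicate block by number, −0.66 with the block by genotype and number, −0.43 with only numbers that have both zones, −0.44 without the 2 shallowest libraries and −0.74 to 0.73 when 1 library was left out. Cblb was 2.10 with voom, 4.87 with the surrogate variable, 5.22 with the yield covariate and −1.23 to 2.07 with 1 library left out. Cd83 was −0.0041 with library totals only, −0.025 with the block by genotype and number, −0.14 with both zones, −0.032 without the 2 shallowest and −0.084 to 0.46 with 1 library left out. H2-DMb2 was −0.11 without the 2 shallowest. Of 28 list medians 12 kept their sign throughout.

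Same-numbered libraries did not all deviate together. Across zones of a genotype 6 pairs correlated at −0.56 to 0.22, 3 of them over 0.1. Between genotypes, number 1 gave 0.306 and 0.177, number 2 gave 0.289, 0.178, 0.0433 and −0.0184, and number 4 gave 0.115 and −0.173. In all, 5 of 12 libraries correlated best with their own number. With the block by number there were 100 higher and 230 lower genes and 0 passing. The depth of the SykY317F LZ libraries, where 3 UMIs are up to 18.8 CPM, limits what can be seen of low genes.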
